A study of Mus musculus with 6 samples.

Results

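Cytochrome b5 and the reductases that feed it electrons were examined in mouse embryonic fibroblasts (MEFs), connective tissue cells cultured from embryos, with and without functional Pax7. The family was taken as 6 genes by symbol, the reductases Cyb5r1, Cyb5r2, Cyb5r3 and Cyb5r4 and the cytochromes Cyb5a and Cyb5b, out of 22180 genes measured by a probe set that names a single gene. Each of the 6 had 1 such probe set. The family was chosen by symbol after Cyb5r3 was selected on its lower log2 signal in the knockout in these data, so the difference of Cyb5r3 between genotypes describes how it was chosen and is not independent evidence. The mutant cells were Pax7-/- MEFs (3 arrays), and their controls were Pax7+/+ MEFs (3 arrays). Both genotypes came from F1 (C57Bl6N x 129Sv) animals and were harvested at confluence from standard serum medium, and the arrays of each genotype are numbered as biological replicates 1 to 3. The labels do not say which embryos or cultures stand behind a number, what embryonic age was used or which part of Pax7 was removed, so p-values measure only the spread between these samples. Values are log2 signals made by RMA, and differences are Pax7-/- minus Pax7+/+.

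Cytochrome b5 is a small haem protein held in a membrane by its tail. Its reductases are flavoproteins that take electrons from NADH and pass them to its haem, which hands them on to enzymes that desaturate fatty acids, sterols and ceramides, to some cytochrome P450s and to the amidoxime reducing proteins of mitochondria. In fibroblasts these proteins sit on the endoplasmic reticulum and the outer mitochondrial membrane. In red cells a soluble form of the Cyb5r3 product keeps haemoglobin in its reduced state, and its loss in humans causes inherited methaemoglobinaemia.

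The labels give the cell type as ESCs, embryonic stem cells, whereas the titles speak of fibroblasts. Of 14 fibroblast markers, 13 or 14 lay above background on every array, against 3 or 4 of 11 measured pluripotent stem cell markers. Background was taken on each array as the level under which 95% of 1394 olfactory and vomeronasal receptor probe sets fell. It was 5.43, 5.34 and 4.63 in Pax7-/- replicates 1, 2 and 3 and 5.44, 5.33 and 4.65 in the Pax7+/+ ones. Both replicate 3 arrays stood apart: they correlated at 0.992 with each other and at 0.814 to 0.844 with the other 4, which correlated at 0.988 to 0.990 among themselves. Genotypes were therefore compared number by number as well as over all arrays. The probe set of Pax7 itself read 6.17, 5.95 and 5.05 in Pax7-/- replicates 1, 2 and 3 and 6.14, 5.65 and 4.88 in Pax7+/+ replicates 1, 2 and 3. It differed by 0.16 (limma SE 0.10 with the replicate number as a block, adjusted p = 0.804). Where that probe set lies against the removed part is not stated, so it does not check the genotype.

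Cyb5r3 encodes the main NADH-dependent reductase of cytochrome b5. Its signal was 8.63, 8.88 and 9.17 in Pax7-/- replicates 1, 2 and 3, against 9.63, 9.55 and 10.26 in Pax7+/+ replicates 1, 2 and 3. The genotypes did not overlap: the highest Pax7-/- array lay below the lowest Pax7+/+ array, although that Pax7-/- array was a replicate 3 array, the number at which Cyb5r3 read highest in both genotypes. In all, 0.744% of genes were lower in Pax7-/- cells without overlap. The means were 8.89 ± 0.27 in Pax7-/- cells and 9.81 ± 0.39 in Pax7+/+ cells (SD, n = 3 each). By replicate number the differences were -0.997, -0.67 and -1.10. Their mean of -0.92 corresponds to a signal 1.90-fold lower in Pax7-/- cells and was the 15th largest fall among all genes. All 6 arrays were above background for this gene by a wide margin, so the fold is not limited by the dim end of the array. In bulk RNA, fewer cells that carry a transcript and less of it per cell cannot be told apart.

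Whether Cyb5r3 passed the test depended on the replicate number. With genotype as the only term, limma's SE was 0.27 and the gene did not pass (adjusted p = 1.00, unadjusted p = 0.0155), and 0% of genes were called in either direction. In that fit 13 genes (0.0586%) were lower and 2 (0.00902%) higher at an unadjusted p under 0.05. With the replicate number as a block the SE was 0.11 and Cyb5r3 was called as lower (limma, adjusted p = 0.0275), 1 of 6 members against 0.0676% of all genes called as lower and 0.00902% as higher in that fit. Cyb5r3 is the gene for which the family was chosen, so nothing is read from this share. The call was lost in the blocked fit without replicate 2 (-1.05, limma adjusted p = 0.0650) and without replicate 3 (-0.84, limma adjusted p = 0.0747). It held without replicate 1 (-0.89, limma adjusted p = 0.00333). It was also lost when the arrays were first brought to 1 common distribution by quantile normalization (-0.95, limma adjusted p = 0.0976), under which the differences by number were -0.96, -0.50 and -1.39. In replicates 1 and 2 alone, without a block, the difference was -0.84 (limma SE 0.12, adjusted p = 0.235). Over 20 alternative settings the size ran between -1.06 and -0.70. A block, a filter on dim genes, an eBayes trend or the mean of a gene's probe sets cannot change this size. The arrays are balanced over the genotypes, and Cyb5r3 has 1 probe set. Since the genotypes did not overlap, leaving out arrays could change the size but not the sign.

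**Figure D1:**
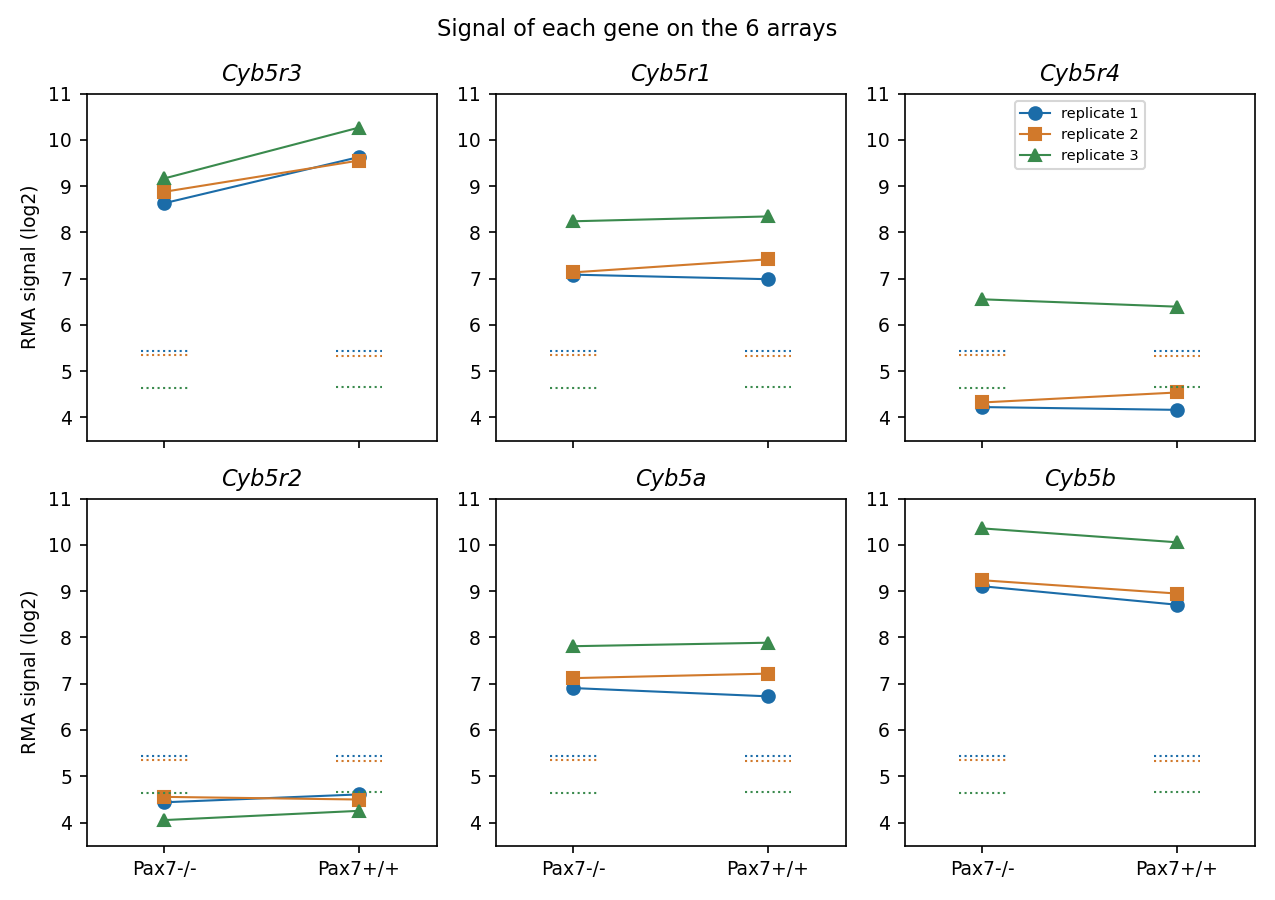
RMA signal (log2, vertical axis) of the 6 genes in Pax7-/- (left of each panel) and Pax7+/+ (right) fibroblasts, 1 point per array, with arrays of equal replicate number joined and short dotted lines at each array's background level. Cyb5r3 slopes up toward Pax7+/+ at all 3 numbers, Cyb5b slopes down, Cyb5r2 stays below background, and Cyb5r4 is above it only at replicate 3.

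Fibroblast markers were read beside this difference because Cyb5r3 is measured in bulk fibroblast RNA. Of the 14 markers, 8 were lower and 2 higher in Pax7-/- cells at all 3 numbers, against 13.8% of all genes in each direction. Of the 13 above background in both genotypes, 7 were lower and 2 higher, against 15.1% and 14.5% of all such genes. The median difference of the 14 markers was -0.11. Lum, the proteoglycan lumican, named here after its values were seen, had a larger difference than Cyb5r3 but did not pass. It read 4.48, 4.46 and 5.13 in Pax7-/- replicates 1, 2 and 3, against 5.19, 5.30 and 7.08 in Pax7+/+ replicates 1, 2 and 3. The genotypes did not overlap, but Lum was above background on the replicate 3 arrays alone, where its difference was -1.95, so no mean fold is given. Col6a1 and Col3a1, also named after their values were seen, were above background on all 6 arrays and lower at all 3 numbers. Their differences were -0.43 and -0.40 (limma adjusted p = 0.214 and 0.432 with the block). Fn1 and Fbln2, the 2 markers higher at all 3 numbers, differed by 0.14 and 0.10. No member of the marker list passed in the blocked fit (smallest limma adjusted p = 0.127), where 5 were lower and 0 higher at an unadjusted p under 0.05, against 3.45% and 3.28% of all genes. The summed linear signal of the fibroblast list was 17870 to 21024 in Pax7-/- arrays and 18096 to 21468 in Pax7+/+ arrays. This sum weighs the brightest markers most, such as Vim and Fn1 (means of 12.14 and 12.10 in Pax7-/- cells). It says little of the dimmer markers, and its ranges also span the distance of replicate 3 from the other arrays. Of 54 measured markers of stem, erythroid, macrophage, endothelial, epithelial and fat cells, 0 passed in the blocked limma fit, where 4 were lower and 3 higher at an unadjusted p under 0.05. For erythroid cells, whose Cyb5r3 form is the best known, 0 of 5 measured markers were above background in both genotypes, and their summed linear signal was 86.6 to 148 in Pax7-/- arrays and 98.7 to 148 in Pax7+/+ arrays. The part of the fibroblast marker shift in the Cyb5r3 difference was not tested.

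The other reductases showed no difference past the threshold. Cyb5r1, a membrane-bound relative of Cyb5r3, read 7.09, 7.13 and 8.24 in Pax7-/- replicates 1, 2 and 3, against 6.99, 7.42 and 8.34 in Pax7+/+ replicates 1, 2 and 3. The genotypes overlapped, and the differences by number were 0.10, -0.28 and -0.10, with a mean of -0.10 (limma SE 0.10 with the block and 0.48 without, adjusted p = 0.908 with the block).

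Cyb5r4 encodes a soluble protein in which a cytochrome b5 domain and a reductase domain are fused in a single chain. It read 4.22, 4.32 and 6.55 in Pax7-/- replicates 1, 2 and 3, against 4.16, 4.54 and 6.39 in Pax7+/+ replicates 1, 2 and 3. It was below background at replicates 1 and 2 of both genotypes and above it on both replicate 3 arrays. Its mean was not above the mean background in either genotype, so no fold is given. Within the replicate 3 pair, where it could be read, the difference was 0.16.

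Cyb5r2, a further reductase of the family, read 4.44, 4.55 and 4.05 in Pax7-/- replicates 1, 2 and 3, against 4.61, 4.50 and 4.25 in Pax7+/+ replicates 1, 2 and 3. It was below background on all 6 arrays, and no difference is drawn from it.

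The cytochromes themselves were read well above background on every array. Cyb5b, the cytochrome b5 of the outer mitochondrial membrane, read 9.11, 9.24 and 10.36 in Pax7-/- replicates 1, 2 and 3, against 8.71, 8.95 and 10.06 in Pax7+/+ replicates 1, 2 and 3. The Pax7-/- array was the higher at each number, by 0.40, 0.29 and 0.30, but the ranges of the genotypes overlapped because both replicate 3 arrays lay far above the rest. The mean difference was 0.33 (limma SE 0.09 with the block and 0.50 without) and did not pass over all genes (adjusted p = 0.465 with the block and 1.00 without, unadjusted p = 0.00512 with the block). In the blocked limma fit, 3.28% of all genes were higher at an unadjusted p under 0.05. Without a block the Cyb5b value turned to -0.07 when Pax7-/- replicate 3 was left out, a setting that leaves replicate 3 in Pax7+/+ cells alone.

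Cyb5a, the cytochrome b5 of the endoplasmic reticulum, read 6.91, 7.12 and 7.81 in Pax7-/- replicates 1, 2 and 3, against 6.73, 7.22 and 7.89 in Pax7+/+ replicates 1, 2 and 3. The genotypes overlapped almost fully. The differences by number were 0.18, -0.10 and -0.08, and their mean did not pass (limma SE 0.10 with the block, adjusted p = 0.999). Of the 6 genes, Cyb5r3 was the member lower at all 3 numbers and Cyb5b the member higher at all 3, against 13.8% of all genes in each direction. The differences of Cyb5r3 and Cyb5b were not tested against each other.

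**Figure D2:**
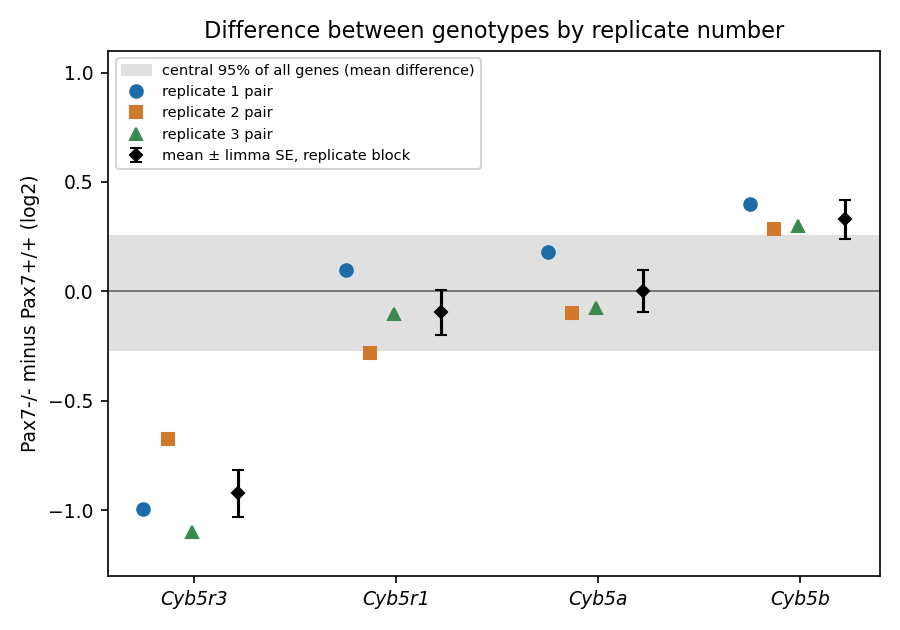
Difference in log2 signal, Pax7-/- minus Pax7+/+ (vertical axis), at replicate numbers 1, 2 and 3 for the 4 genes above background in both genotypes, with the mean and limma's SE from the fit with the replicate block. The grey band holds the central 95% of mean differences over all genes (-0.27 to 0.25). The mean of Cyb5r3 (-0.92) lies below it and that of Cyb5b (0.33) above it. Differences at single numbers have no band of their own here.

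The members also differed in how far replicate 3 lay from the mean of replicates 1 and 2. Among the 4 members above background on all 6 arrays, Cyb5b had a step of 1.18 in Pax7-/- and 1.23 in Pax7+/+ cells, and Cyb5r1 one of 1.13 in Pax7-/- and 1.14 in Pax7+/+ cells. Cyb5a stepped up by 0.80 in Pax7-/- and 0.91 in Pax7+/+ cells, and Cyb5r3 by 0.41 in Pax7-/- and 0.67 in Pax7+/+ cells. The median step over the 8416 genes above background on all 6 arrays was 0.80 in Pax7-/- and 0.82 in Pax7+/+ cells. Cyb5r4 has only a bound, since it was below background at replicates 1 and 2. With those arrays taken at their background level, its step in the deposited values was at least 1.17 in Pax7-/- and at least 1.01 in Pax7+/+ cells. On the linear scale these bounds are 2.24-fold and 2.01-fold.

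The replicate 3 arrays had a wider spread of signal (interquartile range 2.52 and 2.56 in Pax7-/- and Pax7+/+ cells, against 1.88 to 1.94 on the other 4), so the steps were also read after quantile normalization, which brought the median step of those genes to 0.06 in each genotype. Cyb5b was left with 0.51 in Pax7-/- and 0.45 in Pax7+/+ cells, while Cyb5r1 was left with 0.0067 in Pax7-/- and 0.02 in Pax7+/+ cells. Cyb5a turned to -0.26 in Pax7-/- and -0.13 in Pax7+/+ cells. That of Cyb5r3 turned to -0.62 in Pax7-/- cells and shrank to 0.03 in Pax7+/+ cells. The difference in step between the genotypes was not tested. What replicate 3 differed in was not stated in the labels.

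**Figure D3:**
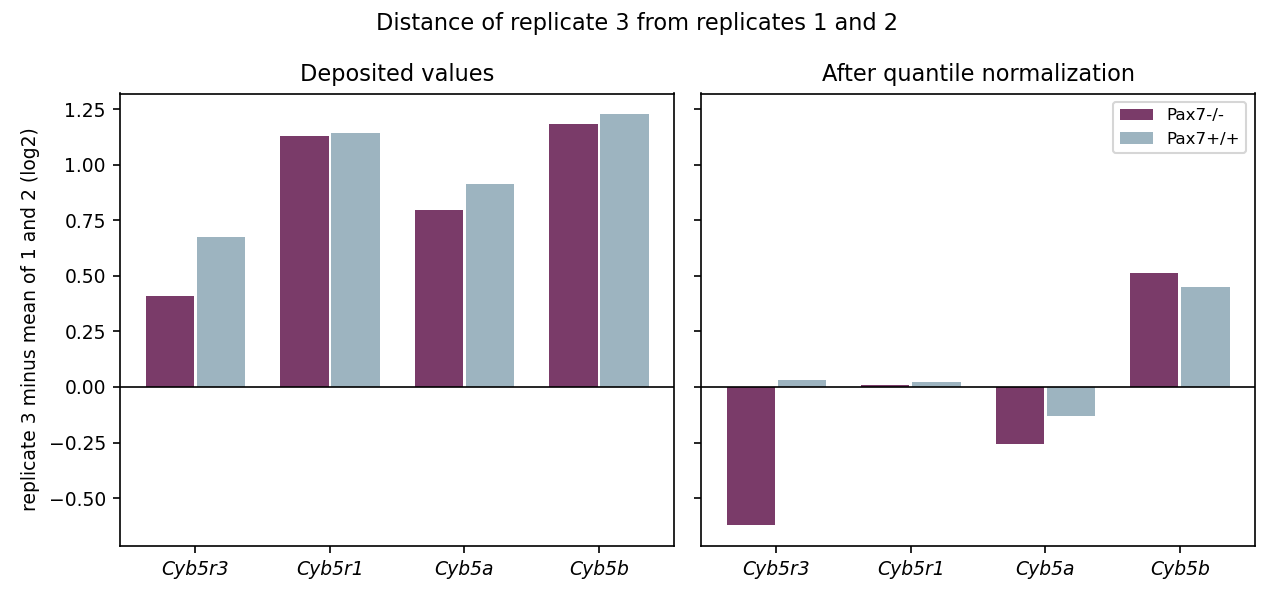
Log2 signal of replicate 3 minus the mean of replicates 1 and 2 (vertical axis) for the 4 genes above background on all 6 arrays, in Pax7-/- (left bar) and Pax7+/+ (right bar) cells, in the deposited values (left panel) and after quantile normalization (right panel). All steps are upward in the deposited values, and after quantile normalization that of Cyb5b stays upward in both genotypes while that of Cyb5r3 is -0.62 in Pax7-/- and 0.03 in Pax7+/+ cells.

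Genes that work with cytochrome b5 or beside it were then read as 8 lists. Of their 73 members, 67 were measured by a probe set of their own and 47 were above background in both genotypes. None passed in the limma fit with the block or without it (smallest adjusted p = 0.484), while 2 were lower and 3 higher at an unadjusted p under 0.05 in the blocked fit, against 3.45% and 3.28% of all genes. Their median difference was 0.02, against -0.00 over all genes.

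Desaturases and hydroxylases that use cytochrome b5, or a b5 domain of their own, had a median difference of 0.06 over 11 measured members. Of these members, 8 were above background in both genotypes. Of these 8, 3 (Scd1, Fads2 and Msmo1) were higher and 0 lower in Pax7-/- cells at all 3 numbers. Among all genes above background in both genotypes, 14.5% were higher and 15.1% lower at all 3 numbers. This lean was not particular to the desaturases. Over all 8 lists, 12 of the 47 genes above background in both genotypes were higher and 4 lower at all 3 numbers. For the transmembrane cytochromes and metalloreductases it was 2 of 5 higher and 0 lower. For Fads2 the differences at replicates 1, 2 and 3 were only 0.17, 0.0036 and 0.01. Their mean was 0.06 (limma SE 0.09 with the block, adjusted p = 0.942). Scd1, which puts the double bond into stearate and palmitate, read 8.20, 8.24 and 9.12 in Pax7-/- replicates 1, 2 and 3, against 7.79, 8.10 and 8.96 in Pax7+/+ replicates 1, 2 and 3. The Pax7-/- array was the higher at each number, but the difference of 0.23 did not pass (limma SE 0.10 with the block, adjusted p = 0.720). Msmo1, the methylsterol oxidase of cholesterol synthesis, was at 0.21 (limma SE 0.10 with the block, adjusted p = 0.769). The amidoxime reducing partners Mtarc1 and Mtarc2, which receive electrons through Cyb5b, had means that were not above the mean background in either genotype. Mtarc2 was above background on the replicate 3 arrays alone, where its difference was 0.31, and Mtarc1 on 1 array of each genotype.

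Microsomal P450s had a median difference of 0.04 over 8 measured members, of which 3 were above background in both genotypes. Cyp2s1 and Cyp1a1, which had the smallest p of that list, were below background on all arrays. Other proteins with a cytochrome b5 fold or a related reductase had a median of -0.00 over 8 members. Fads3, a desaturase-like protein with a b5 domain, was at 0.24 (limma SE 0.10 with the block, adjusted p = 0.717), and Pgrmc2, a haem-binding membrane protein, at -0.18 (limma SE 0.09 with the block, adjusted p = 0.791).

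Transmembrane b-type cytochromes and metalloreductases had a median of -0.00 over 12 members. The ferric reductase Frrs1 was at 0.25 (limma SE 0.10 with the block, adjusted p = 0.713). Steap3, which reduces iron in endosomes, was at -0.26 (limma SE 0.16 with the block, adjusted p = 0.808), a value that rests on replicate 3, since Steap3 was below background on the other 4 arrays. Quinone and thiol flavoenzymes had a median of -0.03 over 8 members, with the thioredoxin reductase Txnrd1 at 0.19 and the quinone reductase Nqo2 at 0.17. Like Steap3, Nqo2 was above background on the replicate 3 arrays alone, where its difference was 0.22.

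Genes of haem synthesis and breakdown, all 11 measured members of which were above background, had a median of -0.02. Alas1, which catalyses the rate-limiting step of haem synthesis, was at 0.11, and Alad, the enzyme after it, at -0.19. The list of globins and soluble guanylyl cyclase, haem proteins that Cyb5r3 can reduce, also held the kinase Prkg1. It had a median of 0.02 over 7 members. Prkg1, the kinase that cyclic GMP activates, read 5.62, 5.56 and 7.63 in Pax7-/- replicates 1, 2 and 3, against 5.81, 5.99 and 8.03 in Pax7+/+ replicates 1, 2 and 3. It was the lower in Pax7-/- cells at each number, and its difference of -0.34 did not pass (limma SE 0.09 with the block, adjusted p = 0.484). The cyclase subunit Gucy1a1 was above background on the replicate 3 arrays alone, where its difference was -1.09. Its mean was not above the mean background in Pax7-/- cells, so no mean size is given for it.

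**Figure D4:**
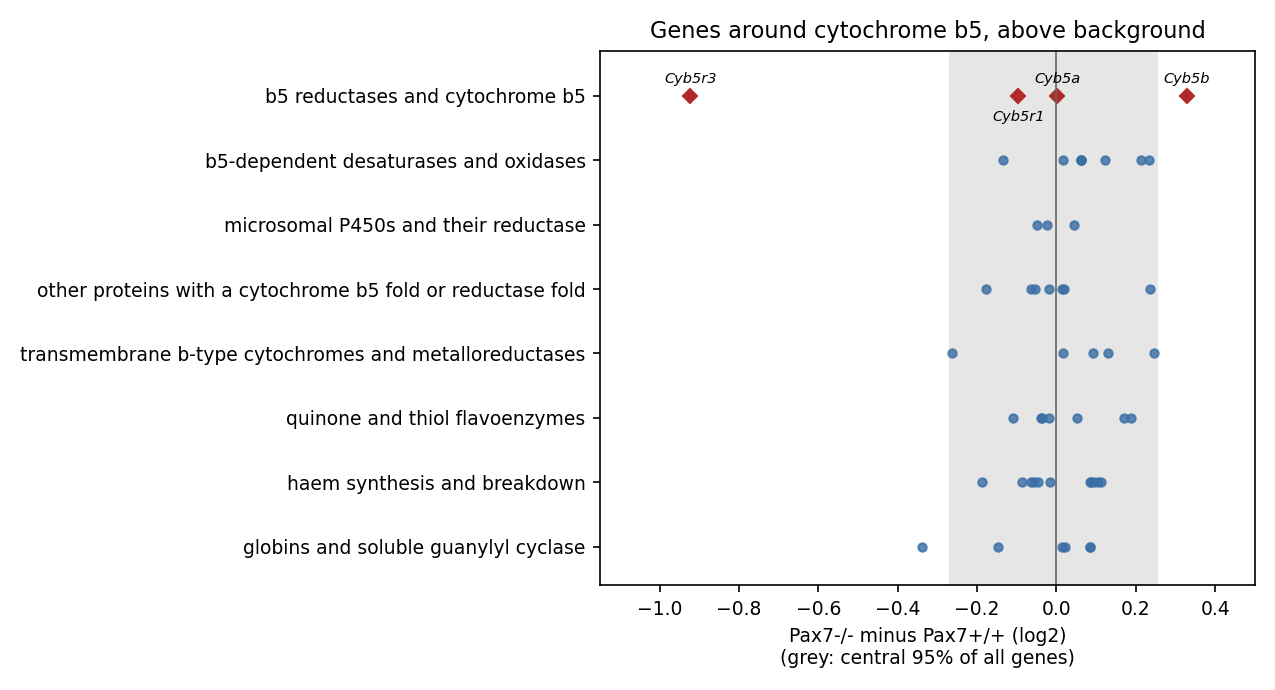
Difference in log2 signal, Pax7-/- minus Pax7+/+ (horizontal axis), for the members (diamonds) and for each listed gene above background in both genotypes (circles), 1 row per list. Of the listed genes shown, Prkg1 lies outside the grey band that holds the central 95% of all genes, as do Cyb5r3 and Cyb5b among the members. Cyb5r3 lies farthest out.

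The genes that flank Cyb5r3 on its chromosome were read for a difference shared along the region. Taking the 3 nearest measured genes on each side in RefSeq order (assembly GRCm38.p6, predicted genes left out), none passed with the block or without it. On the side toward A4galt, the glycosyltransferase that makes globotriaosylceramide, the differences were -0.15 for A4galt, which was below background at replicates 1 and 2, 0.03 for Arfgap3 and 0.03 for Pacsin2. On the other side they were 0.09 for Rnu12, the U12 small nuclear RNA, 0.03 for Poldip3 and 0.36 for Rrp7a, a protein of ribosomal RNA processing (limma SE 0.10 with the block, adjusted p = 0.506). Rrp7a was the higher in Pax7-/- cells at all 3 numbers, by 0.19, 0.30 and 0.59, the opposite direction to Cyb5r3. Rrp7a had a pair of probe sets, and with their mean the difference was 0.16 (limma adjusted p = 0.811 with the block).

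Patterns over the 6 arrays were compared by the Euclidean distance between log2 profiles, each centred on its own mean. With predicted genes left out, the genes most like Cyb5r3 were named. They were Cthrc1, a secreted protein with collagen-like repeats (distance 0.235), Dlk1, the imprinted membrane protein (0.403), Prelp, a leucine-rich proteoglycan (0.502), the Wnt inhibitor Sfrp1 (0.531) and the transcription factor Osr1 (0.532). A low value in Pax7-/- cells follows from this choice: their differences were -0.83, -0.95, -0.80, -0.58 and -0.62 in that order. In the blocked limma fit Dlk1 passed (adjusted p = 0.0212) and the other 4 did not, at adjusted p = 0.0650 for Cthrc1, 0.0621 for Prelp, 0.0908 for Sfrp1 and 0.0650 for Osr1. The call of Dlk1 was lost in the blocked fit without replicate 2 (limma adjusted p = 0.117) and without replicate 3 (limma adjusted p = 0.0694), and without a block (limma adjusted p = 1.00). Prelp had a pair of probe sets, and with their mean its difference was -0.43 (limma adjusted p = 0.410 with the block). None of the 5 is a member of the lists around cytochrome b5.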

How the data were processed

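The authors deposited, for each of 6 arrays, a log2 signal for every probe set. It was made with Partek and RMA, per the submitters' processing notes. The log base was read from the values. Versions, settings and genome were not given in the sources used here. Of 41345 probe sets, 23521 named 1 gene in the platform annotation, 1814 several and 16010 none. For 1082 genes with several such probe sets, the brightest on average over the 6 arrays was used. For arrays, their number limits the precision.

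Pax7-/- was compared with Pax7+/+ in limma (version 3.58.1, R 4.3.3, lmFit and eBayes, two-sided) over all 22180 genes. Genotype was the only term, with Benjamini-Hochberg adjustment at 0.05. The fit was also run on simulated data, with and without the replicate number as a block, and no result here rests on that run. Printed SEs are limma's. Because both genotypes carry replicate numbers 1 to 3, a second fit had the number as a block: deviations of equal-numbered arrays from their genotype's mean correlated at 0.920, 0.895 and 0.973 for replicates 1, 2 and 3. This pairing comes from the data and rests on replicate 3, since Pax7-/- replicate 2 correlated at 0.910 with Pax7+/+ replicate 1. A gene is called not above background in a genotype if none of its 3 arrays, or not their mean, exceeded that level.

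Members, lists and tests were chosen with earlier results of these data known. Named are the members, Pax7, 5 genes by pattern, 3 neighbours on each side and, per list, up to 4 genes that passed or, if none did, the 2 smallest p of the blocked fit. List members without a probe set of their own were not analysed here. Alternatives were the replicate block, replicates 1 and 2 against 3 as a batch, leaving out arrays or numbers, quantile normalization, a filter on dim genes, an intensity trend in eBayes and the mean of a gene's probe sets. Their combinations with the block, and replicates 1 and 2 alone, were added after seeing the data.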

Additional observations from a re-analysis of the deposited data

How the results depend on the processing

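The difference of Cyb5r3 was negative in all 20 alternative settings. Apart from quantile normalization, none of them could turn its sign, since the genotypes did not overlap and the gene has 1 probe set. Whether Cyb5r3 passed depended on modelling the replicate number. In the 11 settings without a block it did not pass. It passed in 6 of the 9 blocked ones, at -0.92 with the replicate block, the batch block, and the replicate block with the filter on dim genes, the eBayes trend or the mean of a gene's probe sets (limma adjusted p = 0.00269 to 0.0275), and at -0.89 with the replicate block and without replicate 1. Genes past the threshold, 0 without a block, were 15 lower and 2 higher with the replicate block and 17 lower and 2 higher with the batch block. With the replicate block they were 17 and 4 after quantile normalization, 35 and 4 with the dim filter, 43 and 11 with the trend and 14 and 2 with probe set means. With the block and replicate number 1, 2 or 3 left out in turn they were 74 and 24, 2 and 0, and 4 and 0, and in replicates 1 and 2 alone, without a block, 1 and 0. Dlk1 also passed with the replicate block, which on its own changed no other call among the named genes. With the dim filter or the trend added to the block, Cthrc1, Prelp, Sfrp1 and Osr1 passed as well (limma adjusted p = 0.0114 to 0.04996, the highest being Sfrp1 with the dim filter). Cthrc1 also passed with the block and quantile normalization, and Cthrc1, Prelp and Sfrp1 with the block and without replicate 1. The cause of these changes was not tested. Signal over background limits what can be said of Cyb5r2 and Cyb5r4.

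With the replicate block, small differences turned sign without replicate 1 for Cyb5a (-0.0863), Poldip3 (-0.0052) and Pacsin2 (-0.0525) and without replicate 3 for Arfgap3 (-0.0066) and Steap3 (0.0057), with the same values for those in replicates 1 and 2 alone. List medians that moved by more than the spread of the 3 numbers were, with the block, 0.0543 for haem genes without replicate 2, and 0.0652 and -0.11 for globins and cyclase without replicates 1 and 2. With the dim filter that of the transmembrane cytochromes was 0.0931, with the block and without it, since fewer genes were tested.

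Leaving out 1 array without a block gives the genotypes unequal shares of replicate numbers, and values then followed the replicate 3 step. The lowest and highest were -0.47 and 0.28 for Cyb5r1, -0.27 and 0.31 for Cyb5a, -0.0663 and 0.74 for Cyb5b, and -1.06 and -0.70 for Cyb5r3. For the neighbours they were -0.18 and 0.79 for Rrp7a, -0.35 and 0.41 for Poldip3, -0.55 and 0.68 for Rnu12, -0.41 and 0.25 for A4galt, -0.42 and 0.44 for Arfgap3 and -0.43 and 0.47 for Pacsin2, and for Pax7 -0.17 and 0.50. For listed genes they were -0.0662 and 0.57 for Scd1, -0.18 and 0.66 for Msmo1, -0.0719 and 0.57 for Fads3, -1.03 and 0.65 for Pgrmc2, -0.53 and 1.02 for Frrs1, -0.45 and 0.0618 for Steap3, -0.31 and 0.62 for Txnrd1, -0.65 and 0.97 for Nqo2, -0.47 and 0.0523 for Alad, -0.11 and 0.30 for Alas1 and -1.02 and 0.37 for Prkg1. List medians ran from -0.10 to 0.34 for the desaturases, -0.0699 to 0.076 for the P450s, -0.46 to 0.42 for the b5 and reductase folds, -0.39 to 0.36 for the flavoenzymes, -0.32 to 0.37 for haem genes and -0.12 to 0.0185 for globins and cyclase.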
